A study of Mus musculus with 2 samples.

Results

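Cholesterol synthesis was followed through 7 genes, *Hmgcs1*, *Sqle*, *Idi1*, *Fdps*, *Lss*, *Insig1* and *Srebf2*, chosen by symbol from the 31053 genes of a mouse liver single-cell RNA matrix. They were described in hepatocytes, taken as barcodes in which *Alb*, *Apoa1*, *Apoa2*, *Ttr* and *Fgb* together held at least 1% of the gene UMIs (unique molecular identifiers, each counted as 1 captured RNA molecule). Of 10220 barcodes that passed the filters on quality, 8510 met this rule. All 7 genes were detected.

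The cells came from the livers of 3 female C57BL/6 mice, injected at 6 to 8 weeks of age and taken on day 6 after hydrodynamic tail-vein injection, which drives plasmid into a subset of hepatocytes. Every mouse received the SB13 transposase and a Sleeping Beauty transposon in which the ubiquitous CAGGS promoter drives human NRAS together with mVenus, a yellow fluorescent protein. The plasmid list of the study joins the G12V form to mVenus by P2A or by an IRES and the D38A form by an IRES, and which G12V plasmid these mice received is not given in the sources used here. In 2 mice NRAS carried the activating change G12V, and the third mouse received G12V with D38A, a change that blocks effector signalling. mVenus-positive cells were sorted, labelled with 1 antibody hashtag per mouse, pooled and sequenced as 1 library. There was no uninjected mouse, and the reference point used here is the cells with the least *Nras* RNA. The deposited table and the methods of the study disagree on which of hashtags 1 and 3 marks the D38A mouse, whereas hashtag 2 marks a G12V mouse in both, so mice are named by hashtag and no comparison between constructs was made. Of the hepatocytes, 2278 were called for a single hashtag, with 456, 1400 and 422 in hashtags 1, 2 and 3. Because reads of the human construct are counted on the mouse *Nras* row, *Nras* UMIs per 1000000 UMIs of the cell were used to class the cells as baseline (under 250), low (250 to 1000), intermediate (1000 to 3000) or high (3000 or more).

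Cholesterol is built from acetyl-CoA through the mevalonate pathway, and the liver is a main site of its synthesis, uptake and disposal. When membranes of the endoplasmic reticulum are short of sterol, the escort protein SCAP carries SREBP2, the product of *Srebf2*, to the Golgi, where it is cut and its released part switches on the genes of the pathway. INSIG proteins hold SCAP back when sterol is plentiful. *Hmgcs1* makes HMG-CoA at the head of the pathway, *Idi1* interconverts the isoprenoid building blocks, *Fdps* joins them to farnesyl pyrophosphate, *Sqle* oxidizes squalene and *Lss* closes the rings of the first sterol. None of the 7 encodes a lipoprotein receptor, and uptake genes are given below from a wider list.

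The 7 genes lie at separate places in GRCm38 except for a shared chromosome in 2 pairs: *Hmgcs1* at chr13:119690379-119708260 (+) and *Idi1* at chr13:8885501-8892451 (+), *Sqle* at chr15:59315077-59331192 (+) and *Srebf2* at chr15:82147181-82205379 (+). *Fdps* lies at chr3:89093588-89101959 (-), *Lss* at chr10:76531588-76557138 (+) and *Insig1* at chr5:28071363-28078662 (+). RefSeq promoter windows of GRCm38.p6, 250 bases before to 50 bases after the start of the gene, were matched for 5 of the 7, and not for *Fdps* and *Sqle*. Each window was searched on both strands for TCACNCCAC (a sterol response element core), CCAAT (the NF-Y box), GGGCGG (an Sp1 box) and CACGTG (an E-box). In the 5 windows no match overlapped a match to another motif. The windows shown are those of 3 SREBP2 target genes that varied together between cells in the results below and of *Srebf2*, whose counts showed little correlation with theirs. Capitals mark matches to TCACNCCAC or CCAAT, read on either strand (the latter as ATTGG on the printed strand). They cover chr13:119690101-119690400, chr13:8885356-8885655, chr5:28071162-28071461 and chr15:82147019-82147318, all on the plus strand.
Hmgcs1: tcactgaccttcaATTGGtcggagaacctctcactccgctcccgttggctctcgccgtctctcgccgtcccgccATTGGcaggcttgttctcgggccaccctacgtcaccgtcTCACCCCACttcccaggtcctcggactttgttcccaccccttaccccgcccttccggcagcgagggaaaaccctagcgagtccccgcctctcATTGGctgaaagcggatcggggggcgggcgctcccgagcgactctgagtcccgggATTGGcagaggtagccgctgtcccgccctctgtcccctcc
Idi1: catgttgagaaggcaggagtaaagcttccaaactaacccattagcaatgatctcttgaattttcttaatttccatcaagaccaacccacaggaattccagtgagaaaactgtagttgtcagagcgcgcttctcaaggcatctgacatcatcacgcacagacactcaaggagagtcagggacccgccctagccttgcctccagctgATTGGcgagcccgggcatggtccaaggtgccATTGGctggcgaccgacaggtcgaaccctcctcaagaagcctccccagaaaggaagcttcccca
Insig1: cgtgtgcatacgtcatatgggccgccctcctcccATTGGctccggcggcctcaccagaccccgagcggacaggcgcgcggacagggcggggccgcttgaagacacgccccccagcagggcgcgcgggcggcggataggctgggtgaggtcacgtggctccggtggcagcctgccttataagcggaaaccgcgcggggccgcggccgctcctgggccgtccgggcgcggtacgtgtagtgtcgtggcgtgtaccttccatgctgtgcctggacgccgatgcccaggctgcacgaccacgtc
Srebf2: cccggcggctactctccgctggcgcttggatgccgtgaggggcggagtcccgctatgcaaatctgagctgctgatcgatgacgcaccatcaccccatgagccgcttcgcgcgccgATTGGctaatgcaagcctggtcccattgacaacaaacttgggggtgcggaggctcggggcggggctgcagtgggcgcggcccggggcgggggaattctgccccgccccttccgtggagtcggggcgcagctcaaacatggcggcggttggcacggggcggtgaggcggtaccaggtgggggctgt
TCACNCCAC was found in 1 of the 5 windows, at -137 of *Hmgcs1*, against 1.24% of all 32851 RefSeq promoter windows. CCAAT was found in 5 of 5, against 37.4% of all windows, and GGGCGG in 5 of 5, against 35.7%. CACGTG was found in *Insig1* alone, at -101, against 7.15% of all windows. A match describes the letters of the window and no match says nothing of binding.

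Depth separated the hepatocytes strongly. The 2306 barcodes with at least 10000 UMIs (called deep here, median 39419) had a median of 8.42% mitochondrial UMIs and 6.53% of UMIs from the 5 hepatocyte genes. In the 5066 hepatocytes with under 5000 UMIs the medians were 0.330% and 2.27%. All 10 hepatocyte marker genes were detected in each summed group of the 3 hashtags. The list includes the 5 genes that select the barcodes, whose detection follows from the rule. Markers of other liver cell types were nevertheless present: 20.8%, 7.07% and 46.0% of the hepatocyte barcodes of hashtags 1, 2 and 3 had at least 2000 such UMIs per 1000000, so results are also given without those barcodes where that changed a call. Hashtag 3 had only 25 deep hepatocytes, 20 of them at baseline. Levels are given as CPM, the UMIs of a gene per 1000000 gene UMIs of the summed cells without *Nras* and mVenus. As UMIs are read near the 3′ end and not divided by length, they are compared within a gene and not ranked between genes, and a lower level in a summed group can be fewer expressing cells or less RNA per cell.

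To ask whether the genes follow the dose of *Nras*, deep hepatocytes were summed per hashtag and *Nras* class. *Idi1* rose with *Nras* and the other 6 genes did not pass the test. *Idi1* levels in hashtag 1 were 235, 308, 361 and 382 CPM from baseline through low and intermediate to high, and in hashtag 2 they were 301, 341, 378 and 373 CPM. The deep cells without a hashtag call, which took no part in the test, had 241, 352, 319 and 307 CPM. They come from the same pooled mice in unknown shares and are not a further replicate. Within each of these 3 sets of cells, every class with more *Nras* was above baseline, and most of the difference was reached by the intermediate class. The rise of high over baseline was 1.63-fold in hashtag 1 and 1.24-fold in hashtag 2, and the fitted log2 fold change was 0.51 (SE 0.126, edgeR quasi-likelihood test, Benjamini-Hochberg adjusted p = 0.0129). For intermediate over baseline it was 0.49 (SE 0.125, edgeR adjusted p = 0.0193). That call was kept in 12 of 16 alternative settings. It turned to -0.36 with cells classed by quartiles of *Nras* (edgeR adjusted p = 0.213), and was not called with classes by mVenus (0.21), with each cell thinned to 10000 UMIs (0.40) or without the deepest cell of each sum (0.40), at edgeR adjusted p of 0.684, 0.196 and 0.0564. High over baseline was called in 12 of 16 alternative settings and was positive in 16 of 16, with adjusted p from 0.000733 to 0.175. It was not called with cells classed by quartiles of *Nras* (0.26) or by mVenus (0.39), with a stricter hashtag rule (10 UMIs or more, 80% of them from 1 tag; 0.35) or with each cell thinned to 10000 UMIs (0.47).

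**Figure D1:**
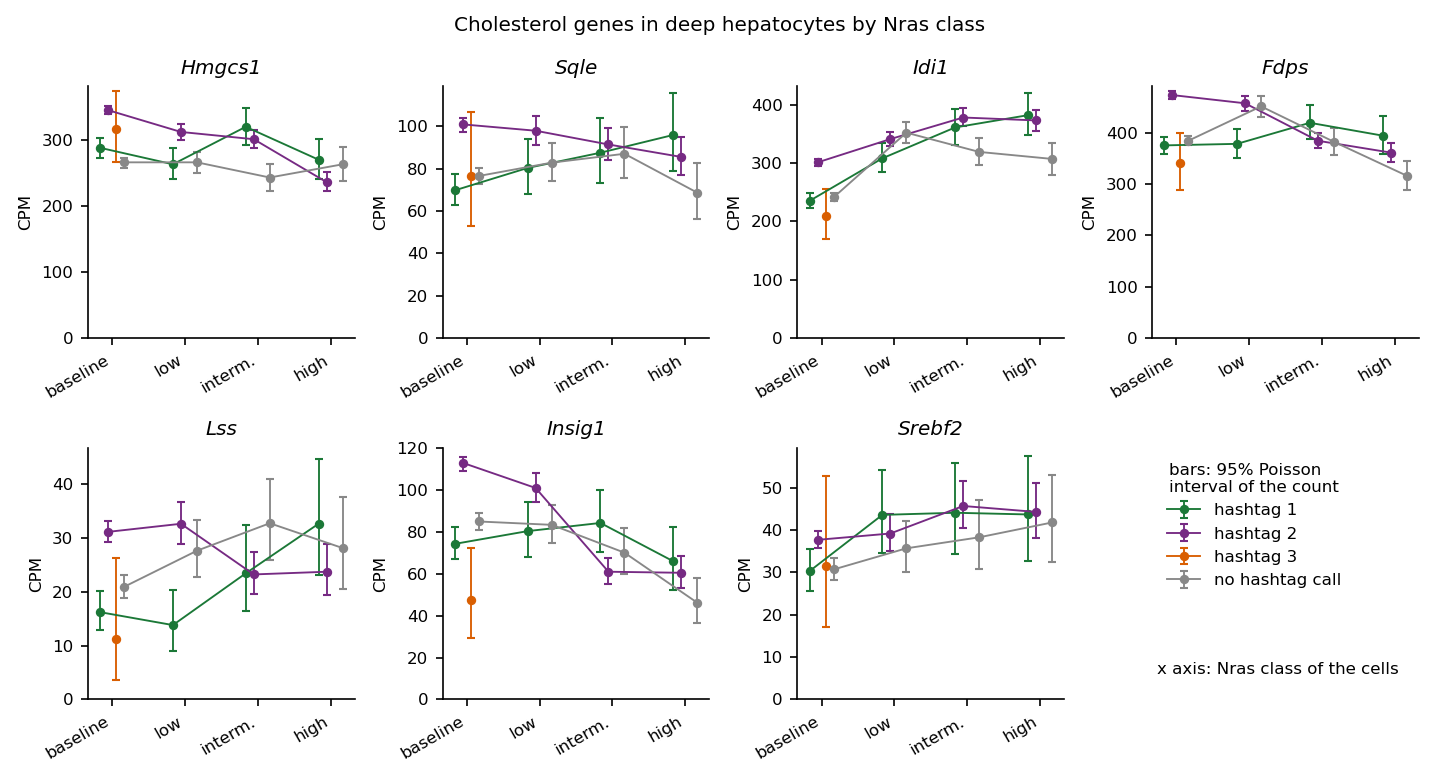
CPM of each gene (y axis, from 0) in summed deep hepatocytes of each *Nras* class (x axis) for hashtags 1, 2 and 3 and for cells without a hashtag call, with 95% Poisson intervals that cover counting error only. *Idi1* stands at 235 to 301 CPM at baseline and 373 to 382 CPM at high *Nras* in hashtags 1 and 2, whereas *Insig1* stands at 113 and 60.5 CPM in hashtag 2 and at 74.3 and 66.0 CPM in hashtag 1.

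The other enzymes showed no shared direction. *Hmgcs1* was at 288 CPM at baseline and 270.0 CPM at high *Nras* in hashtag 1, and at 345 and 236 CPM in hashtag 2. Its fitted change was -0.31 (SE 0.141, edgeR adjusted p = 0.137). *Fdps* was at 375 and 394 CPM in hashtag 1 and at 473 and 361 CPM in hashtag 2 (-0.15, SE 0.144, edgeR adjusted p = 0.508). For both genes the 2 mice differed less at high *Nras* than at baseline.

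*Sqle* was at 69.8 CPM at baseline and 96.0 CPM at high *Nras* in hashtag 1, and at 101 and 85.6 CPM in hashtag 2. *Lss* was at 16.2 and 32.6 CPM in hashtag 1 and at 31.1 and 23.7 CPM in hashtag 2. For both genes the mice moved in opposite directions by more than their counting intervals, and the fitted changes were near 0, at 0.07 for *Sqle* (SE 0.169, edgeR adjusted p = 0.837) and 0.06 for *Lss* (SE 0.312, edgeR adjusted p = 0.938).

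Of the regulators, *Insig1*, the sterol-sensing brake on SREBP2, was lower at high *Nras* in each set of cells without passing the test. In hashtag 1 it was at 74.3, 80.4, 84.3 and 66.0 CPM from baseline to high, in hashtag 2 at 113, 101, 61.0 and 60.5 CPM, and in cells without a call at 85.0, 83.4, 70.1 and 46.2 CPM. The fitted change of high over baseline was -0.60 (SE 0.227, edgeR adjusted p = 0.0824). It passed in 6 of 16 alternative settings, where the adjusted p ranged from 0.00031 to 0.391, among them the fit to cells with at least 30000 UMIs (-0.74, edgeR adjusted p = 0.0158) and the fit without barcodes rich in other cell types' markers (-0.61, edgeR adjusted p = 0.031).

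*Srebf2* itself was at 30.3 CPM at baseline and 43.7 CPM at high *Nras* in hashtag 1, at 37.7 and 44.3 CPM in hashtag 2, and at 30.7 and 41.8 CPM without a call. It was higher at high *Nras* in all 3 sets, by a fitted 0.35 (SE 0.152, edgeR adjusted p = 0.129), which did not pass. Between *Srebf2* and its target genes the direction was therefore shared by *Idi1* alone in every set.

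In all, 1 of the 7 genes was called higher and none lower in high against baseline *Nras*, where 25.2% of 10616 genes tested were called (12.7% higher and 12.5% lower). In intermediate against baseline, 1 of 7 was called higher, where 20.4% of genes were called (10.2% higher and 10.2% lower). By calls in either direction, the share among the 7 was thus no larger than over all genes. By calls of higher genes alone it was slightly larger, and it rests on 1 gene. None of the 7 was called in high against intermediate *Nras*, where only 1 gene of all tested was called (0.00942%), *Cyp2e1*, with 578 genes at an unadjusted p under 0.05 and 22 genes called by DESeq2. In that comparison the fitted changes of the 7 ran from -0.30 for *Hmgcs1* (SE 0.143) to 0.19 for *Lss* (SE 0.351). These comparisons rest on hashtags 1 and 2, since hashtag 3 had too few deep cells above baseline. Under the deposited assignment hashtag 1 is the D38A mouse, and they would then pool 1 mouse of each construct. Cells of high *Nras* also had less hepatocyte RNA, with a median of 3.45% of UMIs from the 5 hepatocyte genes against 7.66% at baseline. They had more UMIs too (median 53562 against 35839), and the part of either in the result was not tested.

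Depth gave a different division of the 7 genes. Among cells at baseline *Nras*, *Sqle*, *Lss*, *Insig1* and *Srebf2* were higher in deep than in shallow hepatocytes (from 1000 to under 10000 UMIs), whereas *Hmgcs1*, *Idi1* and *Fdps* did not pass the test. *Sqle* differed most: it was at 10.3 CPM in shallow and 69.8 CPM in deep cells of hashtag 1, at 27.5 and 101 CPM in hashtag 2, and at 9.01 and 76.5 CPM in hashtag 3. The deep cells were above the shallow ones by 6.75-fold, 3.66-fold and 8.50-fold, and the shallow levels rest on 8, 29 and 9 UMIs. In cells without a hashtag call, outside the test, the levels were 18.3 and 76.6 CPM. The fitted log2 fold change was 2.60 (SE 0.239, edgeR adjusted p = 0.00119).

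*Lss*, the enzyme after *Sqle*, was at 11.6, 10.4 and 4.0 CPM in shallow cells of hashtags 1, 2 and 3 and at 16.2, 31.1 and 11.3 CPM in deep cells (fitted change 1.37, SE 0.352, edgeR adjusted p = 0.0292). These shallow levels rest on 9, 11 and 4 UMIs. *Insig1* was at 40.1, 57.0 and 45.0 CPM in shallow and 74.3, 113 and 47.3 CPM in deep cells (0.92, SE 0.224, edgeR adjusted p = 0.0242), so that hashtag 3 showed almost no difference. *Srebf2* was at 16.8, 23.7 and 16.0 CPM in shallow and 30.3, 37.7 and 31.5 CPM in deep cells (0.99, SE 0.211, edgeR adjusted p = 0.0159). These 3 calls depend on single mice and on the processing. Without hashtag 1 *Insig1* (0.83, edgeR adjusted p = 0.139) and *Srebf2* (1.00, edgeR adjusted p = 0.0882) were not called, and without hashtag 2 *Lss* (0.90), *Insig1* (0.68) and *Srebf2* (1.04) were not, at edgeR adjusted p of 0.276, 0.108 and 0.054. DESeq2 did not call *Lss* (adjusted p = 0.0852) or *Srebf2* (adjusted p = 0.0517). Under the stricter hashtag rule, which left 2 mice, none of the 3 was called (edgeR adjusted p = 0.0884 for *Lss*, 0.38 for *Insig1* and 0.443 for *Srebf2*), and without the mouse as a block *Lss* and *Insig1* were not called (edgeR adjusted p = 0.0686 and 0.0797). *Sqle* was called in each of these settings. With each cell thinned to 1000 UMIs, only 4 of the genes could be tested, and *Insig1* alone was called, as higher. *Sqle*, *Lss* and *Srebf2* were not among those tested. Whether their differences hold at equal depth therefore cannot be told from that setting.

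The 3 remaining enzymes were already plentiful in shallow cells. *Hmgcs1* was at 339, 385 and 198 CPM in shallow and 288, 345 and 317 CPM in deep cells of hashtags 1, 2 and 3, lower in deep cells of 2 mice and higher in the third (fitted change 0.24, SE 0.176, edgeR adjusted p = 0.327). *Idi1* was at 262, 285 and 174 CPM in shallow and 235, 301 and 209 CPM in deep cells (0.23, SE 0.124, edgeR adjusted p = 0.205). *Fdps* was at 394, 404 and 215 CPM in shallow and 375, 473 and 339.9 CPM in deep cells (0.43, SE 0.150, edgeR adjusted p = 0.0713). In cells without a hashtag call these 3 genes were lower in deep cells, at 0.727, 0.776 and 0.864 times their shallow level.

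**Figure D2:**
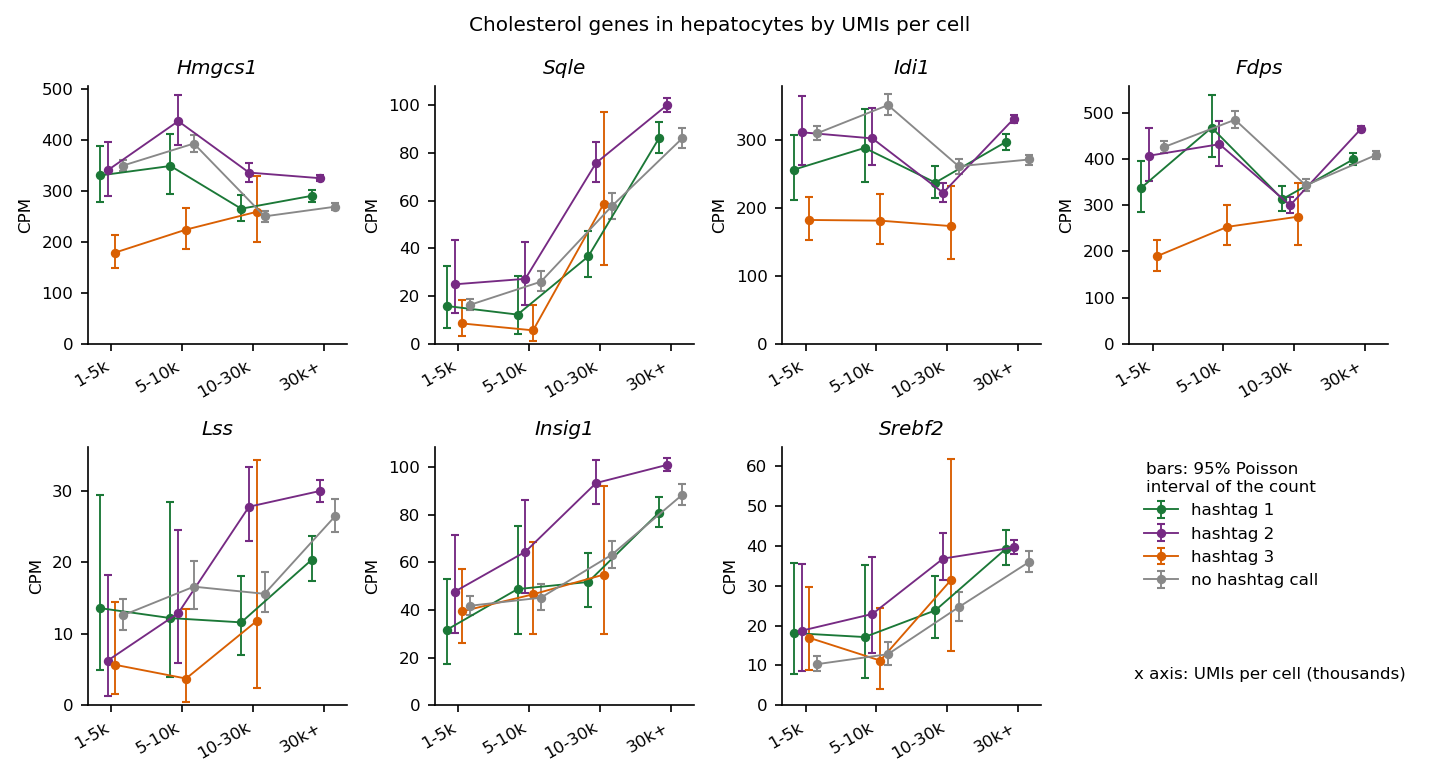
CPM of each gene (y axis, from 0) in hepatocytes of all *Nras* classes in 4 classes of UMIs per cell (x axis), for each hashtag and for cells without a call, with 95% Poisson intervals for sums of at least 10 cells. In hashtag 1 *Sqle* runs from 15.8 CPM in the shallowest to 86.2 CPM in the deepest cells, while *Hmgcs1* stands at 330.3 and 290.4 CPM.

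Over all hepatocytes of baseline *Nras*, called or not, the same division appeared in steps. *Sqle* was at 15.5, 21.3, 60.1 and 96.7 CPM in cells with under 5000 UMIs, from 5000, from 10000 and from 30000 UMIs, and its largest step lay at 10000 UMIs. *Srebf2* took the same form, at 10.6, 12.4, 27.2 and 36.7 CPM, and *Insig1* a flatter one, at 41.3, 47.7, 71.3 and 106 CPM. *Hmgcs1* (342, 373, 274 and 324 CPM), *Idi1* (288, 311, 223 and 287 CPM) and *Fdps* (408, 450.0, 322 and 459 CPM) shared another form, lowest in the class from 10000 to under 30000 UMIs.

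By count, 4 of the 7 genes were called higher and none lower in deep cells, where 33.6% of 7037 genes were called (17.1% higher and 16.5% lower). Without TMM scaling the median log2 fold change over all genes moved from 0.01 to -0.18, with 961 genes called higher and 1648 lower, and the same 4 genes of the 7 were still called higher. Depth went with other measures in these sums. Shallow cells of hashtags 1, 2 and 3 had a median of 0.788%, 1.79% and 5.55% mitochondrial UMIs against 7.21%, 8.96% and 5.63% in deep cells. The 7 endothelial markers, all detected, summed to 385, 514 and 3479.9 CPM in shallow cells and 113, 12.6 and 876 CPM in deep cells, and the dendritic cell list to 1900.2, 2693 and 616 CPM against 2652, 256 and 1731 CPM. Without barcodes rich in these markers, *Sqle* (2.32), *Insig1* (0.80) and *Srebf2* (1.36) were still called by edgeR and *Lss* was too low to test. Among cells with at least 5% hepatocyte RNA, of which the shallow sums held few, *Sqle* differed by 1.33 (edgeR adjusted p = 0.142) and *Insig1* by -0.01 (edgeR adjusted p = 0.996), 59 genes were called in all, and *Lss* and *Srebf2* were too low to test. The part of mitochondrial and hepatocyte RNA in the result was not tested.

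**Figure D3:**
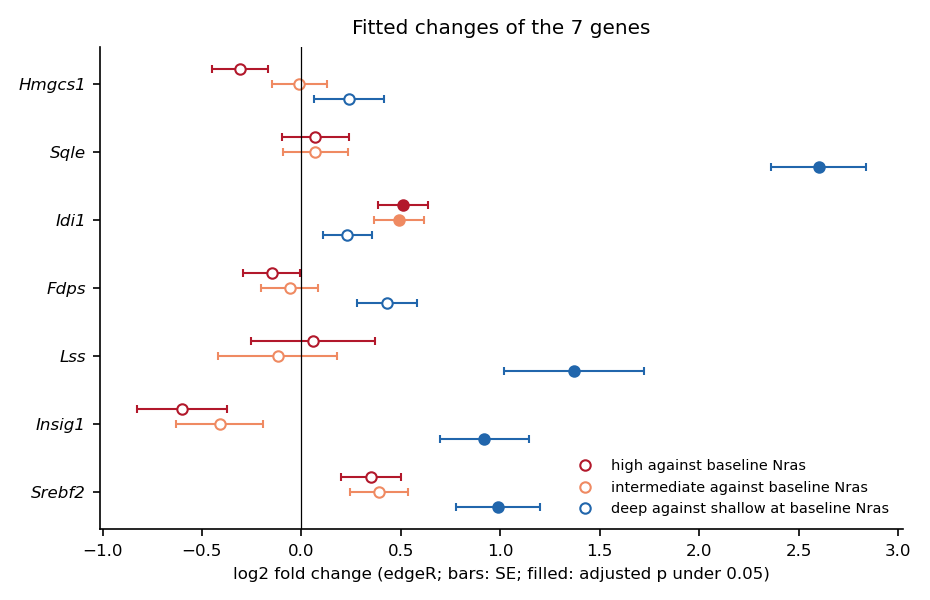
Fitted log2 fold changes of the 7 genes (x axis) with their SE for the comparisons of high and intermediate with baseline *Nras* and of deep with shallow cells, filled where the edgeR adjusted p was under 0.05. *Idi1* is filled for both *Nras* comparisons, and *Sqle*, *Lss*, *Insig1* and *Srebf2* for depth, with *Sqle* farthest out at 2.60.

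The wider pathway was read from 5 lists, leaving out the 7 genes. Of 15 other cholesterol synthesis genes tested, 1 rose and 3 fell in high against baseline *Nras*, with a median change of -0.18 against -0.02 over all genes. *Msmo1*, a sterol methyl oxidase, rose from 291 to 488 CPM (hashtag 1) and from 397 to 503 CPM (hashtag 2) (0.55, SE 0.129, edgeR adjusted p = 0.00991). *Dhcr7*, which catalyses the last step of 1 branch, fell in both mice, from 24.8 to 15.4 CPM and from 32.6 to 16.4 CPM (-0.88, SE 0.226, edgeR adjusted p = 0.0163). *Sc5d*, the preceding desaturase, fell by 0.59 (SE 0.162, edgeR adjusted p = 0.0211) and *Acat2*, which makes acetoacetyl-CoA, by 0.54 (SE 0.135, edgeR adjusted p = 0.0131). By depth, 11 of the 15 were higher in deep cells and none lower, with a median of 1.23 against 0.01 over all genes. *Msmo1* was among them at 2.34 (SE 0.148, edgeR adjusted p = 0.000668), with 73.7, 102 and 41.0 CPM in shallow and 291, 397 and 252 CPM in deep cells of hashtags 1, 2 and 3.

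Among the other genes of SREBP2 regulation and lipoprotein uptake, with a median change of 0.08 over the 13 tested at high *Nras*, *Scarb1*, the HDL receptor, fell in both mice, from 43.6 to 25.7 CPM and from 58.9 to 25.1 CPM (-1.05, SE 0.204, edgeR adjusted p = 0.0034). Thus *Idi1* and *Msmo1*, which are SREBP2 target genes, were higher at high *Nras* in both mice, beside other target genes that were lower or did not pass. By depth, 8 of 12 genes of this list tested were higher and none lower (median 1.02). *Scarb1* was at 9.05, 34.2 and 22 CPM in shallow and 43.6, 58.9 and 49.5 CPM in deep cells of hashtags 1, 2 and 3 (1.45, SE 0.280, edgeR adjusted p = 0.0115).

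Of the 10 genes in the bile acid synthesis list, 7 could be tested, and those 7 fell at high *Nras*, with a median of -2.33. *Akr1d1*, which reduces the sterol ring of bile acid precursors, was at 50.5 and 3.43 CPM at baseline and high in hashtag 1 and at 28.9 and 1.41 CPM in hashtag 2 (-4.17, SE 0.253, edgeR adjusted p = 2.11e-06). The levels of *Akr1d1* at high *Nras* rest on 4 UMIs in hashtag 1 and 6 in hashtag 2. *Slc27a5*, a bile acid CoA ligase, fell by 3.13 (SE 0.346, edgeR adjusted p = 8.59e-05) and *Baat*, which conjugates bile acids, by 2.58 (SE 0.194, edgeR adjusted p = 7.2e-06). *Cyp7b1*, an oxysterol hydroxylase, changed by -2.33 (SE 0.489, edgeR adjusted p = 0.00546), and its level at high *Nras* rests on 1 UMI in hashtag 1 and 6 in hashtag 2. Of the 10 genes of LXR and cholesterol efflux, 4 fell, none rose and 6 did not pass (median -0.67). Those that fell were *Abcg5* (-2.39, SE 0.311, edgeR adjusted p = 0.000254) and *Abcg8* (-1.78, SE 0.393, edgeR adjusted p = 0.00715), which pump sterol into bile, *Lcat*, which esterifies cholesterol in plasma (-2.17, SE 0.244, edgeR adjusted p = 9.84e-05), and *Nr1h3*, which encodes LXR alpha (-0.63, SE 0.150, edgeR adjusted p = 0.0107). At high *Nras*, *Abcg5* rests on 2 UMIs in hashtag 1 and 14 in hashtag 2, and *Abcg8* on 12 and 16.

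Of 12 fatty acid synthesis genes tested, 4 fell and none rose at high *Nras* (median -0.57), among them the desaturases *Fads2* (-1.52), *Fads1* (-1.17) and *Scd1* (-0.79) and the acetyl-CoA synthetase *Acss2* (-1.36), with edgeR adjusted p from 0.00446 to 0.0441. The level of *Fads2* at high *Nras* rests on 6 UMIs in hashtag 1 and 6 in hashtag 2. By depth, 7 of 10 were higher and none lower in deep cells (median 1.06). The efflux list had 4 higher and 1 lower of 7 tested by depth (median 1.18) and the bile acid list 2 higher and 3 lower of 6 (median -0.25). *Akr1d1* was the lowest of these, at 169, 181 and 180.2 CPM in shallow and 50.5, 28.9 and 36.0 CPM in deep cells (-2.05, SE 0.186, edgeR adjusted p = 0.00118). All lists were chosen with earlier results of these data known, and their counts describe the lists without a test of the list.

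**Figure D4:**
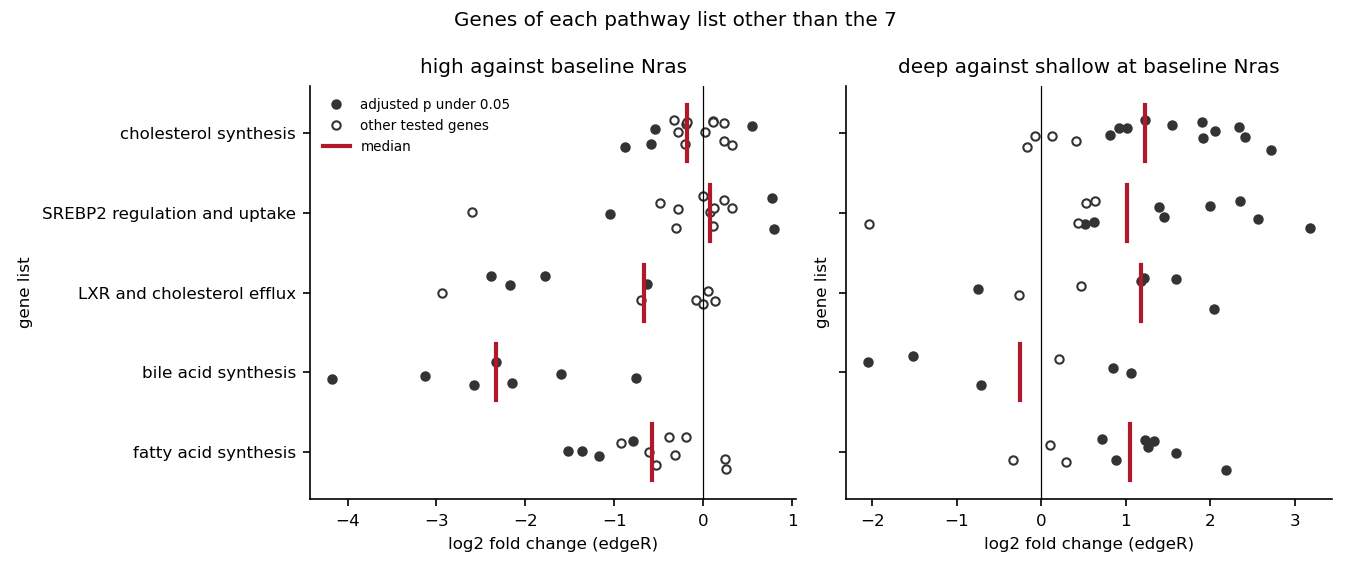
Fitted log2 fold change (x axis) of every tested gene of each list (rows) other than the 7, for high against baseline *Nras* (left) and deep against shallow (right), filled where the edgeR adjusted p was under 0.05, with a red bar at the median. On the left bile acid synthesis lies farthest below 0 (median -2.33) and cholesterol synthesis near it (median -0.18), and on the right cholesterol synthesis lies above 0 (median 1.23).

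Cell by cell, 6 of the 7 genes varied together, and the counts of *Srebf2* showed little correlation with theirs. Baseline hepatocytes with at least 30000 UMIs were each thinned to 30000 UMIs, which left 70 cells in hashtag 1 and 620 in hashtag 2. This made the totals equal. Differences in composition that go with depth before thinning remain, and their part in the correlations was not tested. Over the 15 pairs of the 6 target genes, Pearson's r across cells ran from 0.31 to 0.80 in hashtag 1 (median 0.55) and from 0.20 to 0.69 in hashtag 2 (median 0.38). *Idi1* and *Fdps*, consecutive enzymes, reached 0.71 and 0.69, and *Hmgcs1* and *Idi1* 0.80 and 0.49. Over the 6 pairs with *Srebf2*, r ran from -0.08 to 0.12 in hashtag 1 (median 0.01) and from 0.00 to 0.06 in hashtag 2 (median 0.04). These are descriptions across cells of 1 mouse, which share a library.

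*Srebf2* had 1.17 and 1.10 UMIs per cell on average in the thinned cells of hashtags 1 and 2. *Lss*, which had fewer UMIs (0.700 and 0.926), reached r of 0.31 to 0.69 and 0.20 to 0.40 with the other target genes. The variance of *Srebf2* was 1.36 and 1.10 times its mean in hashtags 1 and 2, against 1.63 and 1.55 times for *Lss*, the member nearest to it in level. Counting error thus made up a larger part of the variance of *Srebf2* than of *Lss*. The low r of *Srebf2* therefore cannot tell a lack of shared variation from shared variation masked by counting error. The squared coefficient of variation beyond counting error was not ordered alike in the 2 mice. In hashtag 2 it was 0.0909 for *Srebf2* and between 0.258 (*Sqle*) and 0.595 (*Lss*) for the other 6, whereas in hashtag 1, with fewer cells, it was 0.307 for *Srebf2*, above *Sqle* (0.255), and up to 0.899 (*Lss*). *Hmgcs1* ran from 0 to 43 UMIs per cell in hashtag 2, with a median of 9, and *Fdps* from 0 to 62, with a median of 13.

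**Figure D5:**
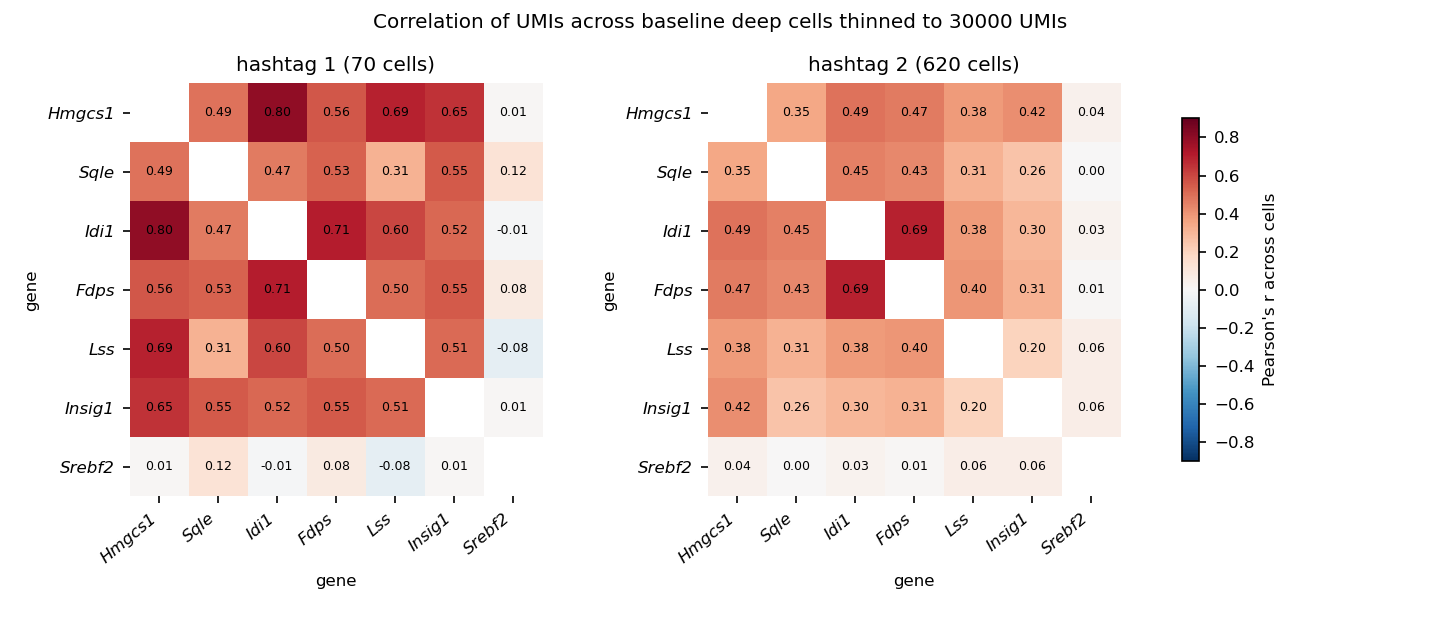
Pearson's r (colour and printed value) of UMIs between each pair of the 7 genes (rows and columns) across baseline hepatocytes thinned to 30000 UMIs, in hashtag 1 (70 cells) and hashtag 2 (620 cells). The row and column of *Srebf2* lie between -0.08 and 0.12, and all other pairs between 0.20 and 0.80.

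Over the 9 sums of hashtag and *Nras* class in deep cells, each gene was set against the mean log2(CPM + 1) of the 7. Among 4402 genes with a mean of at least 20 CPM, the 10 most alike included *Serpina1a* (r = 0.952), *Spcs3*, *Atp2a2*, *Apoa1*, *Dnajb11*, *Eif4g1*, *1700017B05Rik* and *Rrbp1* (r = 0.891). The 9 sums come from 3 mice and share them, so these values are descriptions. Against the mean of the other 6, *Sqle* (0.878), *Fdps* (0.847) and *Lss* (0.834) were alike, *Idi1* (0.643), *Insig1* (0.566) and *Srebf2* (0.486) less so, and *Hmgcs1* stood apart (0.123).

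Outside hepatocytes *Srebf2* stood apart from the other 6. The 1710 other kept barcodes, sorted with them and rich in markers of other cell types (median 6836 UMIs), had 89.2 CPM of *Hmgcs1*, 88.4 of *Idi1*, 96.6 of *Fdps*, 20.7 of *Sqle*, 4.35 of *Lss* and 25.7 of *Insig1*. All of these were below the levels in deep baseline hepatocytes (314, 275, 432, 89.5, 26.2 and 99.3 CPM). Against baseline hepatocytes of like depth (5000 to under 10000 UMIs, given above) *Sqle* was not lower, since those had 21.3 CPM, while the other 5 were. *Srebf2* was higher than in hepatocytes, at 49.9 CPM (95% Poisson interval 46.4 to 53.7) in the other barcodes and 34.9 CPM (33.4 to 36.4) in deep baseline hepatocytes, and 12.4 CPM (9.89 to 15.4) in those of like depth. Each group is a single pool and the difference was not tested over mice.

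Over all hepatocytes of a mouse, whatever their *Nras* or depth, the levels in hashtags 1, 2 and 3 were 290.3, 328 and 243 CPM for *Hmgcs1*, 285, 321 and 204 CPM for *Idi1* and 386, 451 and 283 CPM for *Fdps*. They were 72.7, 96.5 and 35.6 CPM for *Sqle*, 18.4, 29.4 and 11.9 CPM for *Lss*, 73.2, 99.8 and 46.4 CPM for *Insig1* and 35.2, 39.0 and 19.9 CPM for *Srebf2*. Hashtag 2 was highest and hashtag 3 lowest for all 7 genes. Among deep cells alone, hashtag 3 was at 335 CPM for *Hmgcs1* and 418 CPM for *Fdps*, against 326 and 451 CPM in hashtag 2. With 1 mouse carrying D38A and its hashtag in doubt, no test between mice was made.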

How the data were processed

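Liver cells of 3 mice were measured by 10x 3′ single-cell RNA sequencing with hashtag antibodies, in 1 pooled library loaded on 2 Chromium lanes. The deposited values are raw counts: the authors counted UMIs per gene and barcode with Cell Ranger on mm10, with mVenus added as a row, and hashtag UMIs with CITE-seq-Count. The version of Cell Ranger is given as 2.1.1 in the submitters' processing notes and 3.0.2 in the matrix header, and the filter behind the deposited barcodes is not given in the sources used here. The gene matrix held 13151 barcodes and 142080194 UMIs, and 13141 of its barcodes were also in the hashtag matrix.

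A barcode was kept if it had 500 or more genes detected, 1000 or more UMIs, and a mitochondrial share below 20%. Hashtags were called by HTODemux (Seurat 5.3.0, quantile 0.99), which gave 5482 singlets, 271 doublets and 7386 barcodes without a call. The doublets were left out of the comparisons between sums, and no other doublet caller was run. UMIs were summed per hashtag and class, for sums of at least 10 cells, without *Nras* and mVenus. Sums were compared by the edgeR 4.0.16 quasi-likelihood test (TMM, filterByExpr, mouse as a block because classes come from the same animals), with Benjamini-Hochberg adjustment over all genes tested and a threshold of 0.05. The *Nras* comparisons rest on 2 mice and the depth comparison on 3, and their p-values measure the spread between so few. In a shallow cell a single *Nras* UMI can exceed the baseline class, so shallow baseline cells are mostly cells with none detected. Poisson intervals (95%) cover counting error only, from the depth of each sum. The steps were tested on simulated data first. DESeq2 1.42.0 and the other alternatives are given in the closing section.

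The 7 genes and all lists were chosen with earlier results of these data known. Genes named were the 7, from each list up to 4 genes with the largest called change in high against baseline *Nras*, and the 10 genes most like the mean of the 7. Some genes that this rule names are not reported here. *Cyp2e1*, the sole gene called in high against intermediate, was named after its value was seen.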

Additional observations from a re-analysis of the deposited data

Results flagged for a closer look

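Several differences had opposite signs in mice that carry different constructs under one of the stated hashtag assignments. None of these differences between mice was tested, since each construct has 1 or 2 mice here. Under the deposited assignment (hashtag 1 as D38A), the log2 ratio of high over baseline *Nras* in hashtags 1 and 2 was 0.46 and -0.24 for *Sqle*, 0.07 and -0.39 for *Fdps*, and 1.00 and -0.39 for *Lss*. For intermediate over baseline it was 0.15 and -0.20 for *Hmgcs1*, 0.33 and -0.14 for *Sqle*, 0.16 and -0.30 for *Fdps*, 0.52 and -0.42 for *Lss*, and 0.18 and -0.89 for *Insig1*. For high over intermediate it was 0.13 and -0.10 for *Sqle* and 0.08 and -0.02 for *Idi1*, within counting error in both mice.

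For deep over shallow cells at baseline *Nras*, the same assignment set hashtag 1 apart for *Idi1*, with log2 ratios of -0.16, 0.08 and 0.27 in hashtags 1, 2 and 3, and for *Fdps*, with -0.07, 0.23 and 0.66. Under the assignment in the methods (hashtag 3 as D38A), *Hmgcs1* was the gene with opposite signs, at -0.23, -0.16 and 0.68. If hashtag 1 is a G12V mouse, the *Nras* comparisons hold 2 mice of 1 construct and their differences lie between mice of like treatment. If it is the D38A mouse, those comparisons pool 1 mouse of each construct. The larger rise of *Idi1* (1.63-fold in hashtag 1 against 1.24-fold in hashtag 2) would then lie in the D38A mouse.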

How the results depend on the processing

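Of the changes of the 7 genes under the alternatives, 407 of 441 kept their direction or stayed uncalled, 20 lost a call and 12 gained one. The 2 that turned were *Idi1* in intermediate against baseline by quartiles of *Nras* (-0.36) and *Insig1* by depth at 5% or more hepatocyte RNA (-0.01). High against baseline gave 1425 genes called with DESeq2 and 1109 with cells thinned to 10000 UMIs, against 2679. Intermediate against baseline gave 1116 with DESeq2, 290 by quartiles of *Nras*, 75 by mVenus classes and 867 after thinning, against 2163. High against intermediate, with 1 gene called, gave 22 with DESeq2, 185 without a filter, 1123 by quartiles, 1187 by mVenus classes, 2 without TMM, 3 without the deepest cell of each sum, 10 without barcodes rich in other markers, and 0 with the stricter hashtag rule, with at least 5000 UMIs or after thinning. The quartile and mVenus settings draw other classes, so they compare other cells. Deep against shallow gave 587 with the stricter hashtag rule, which left 2 mice, 59 at 5% or more hepatocyte RNA and 560 after thinning to 1000 UMIs, against 2363, and from 1024 (without hashtag 1) to 2884 (without hashtag 3) with a mouse left out. Without the replicate block, the 4 comparisons gave 2142, 1548, 0 and 1937 genes, and *Lss* and *Insig1* were no longer called by depth (edgeR adjusted p = 0.0686 and 0.0797). Otherwise the cause was not tested. The settings without barcodes rich in other markers, with thinning and without TMM were chosen after seeing the data. Not run for lack of sums were the *Nras* comparisons at 5% or more hepatocyte RNA, at 10000 to under 30000 UMIs, and without hashtag 1 or hashtag 2, which left no residual degrees of freedom. Of 63 levels per hashtag, 17 moved beyond their 95% Poisson interval, most of them in hashtag 3. Depth limits *Lss*, *Sqle* and *Srebf2* most, with 4 to 29 UMIs in each shallow sum.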
